A study of Mus musculus with 31 samples.

Results

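The last sampling day of the experiment was set against all earlier ones. All 7 arrays labelled with 21 days of exposure, out of 31, were compared with the 24 arrays of 2, 7 or 14 days, with the treatment as a term of the model. The comparison asks which genes of the distal colon stood apart at 21 days irrespective of E171, as a condition shared by all mice of that day, such as the time of day at harvest, would leave them. Each array held total RNA from the distal colon of 1 BALB/c mouse. All mice, controls included, had received an injection of the carcinogen azoxymethane (AOM) before the start and dextran sodium sulphate (DSS), which injures the mucosa, in the drinking water during the first days, a combination that makes a chemical model of colorectal cancer (CRC). The mice of the CRC + E171 group were also given 5 mg/kg body weight per day of E171, which is food-grade titanium dioxide, by gavage, and those of the CRC group the vehicle, water. At 21 days there were 3 CRC arrays (1 male and 2 females) and 4 CRC + E171 arrays (2 males and 2 females), and each of the 6 earlier groups held 2 males and 2 females. The labels give no time of day.

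Nearly every cell keeps time with a loop of transcription factors. BMAL1 (the product of Arntl) pairs with CLOCK or NPAS2 and switches on genes of the Period, Cryptochrome and Rev-erb families and D-box activators such as Dbp, whose products then act back on the loop. The Rev-erb proteins, from Nr1d1 and Nr1d2, repress Arntl, Npas2 and Nfil3, so these run in opposite phase to Dbp and Ciart. In the gut this clock follows light, feeding and glucocorticoid hormones, and it times transport, barrier and immune genes over the day.

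The short sequences through which the loop acts were looked up in the 250 bases before the RefSeq start sites (build GRCm38.p6) of 19 clock genes, of which 16 had an entry. The E-box CACGTG, bound by BMAL1 with its partners, lay in such a window of Ciart, Per1, Tef, Cry1 and Bhlhe41. It occurs in 6.02% of all 32851 windows of this kind. The D-box TTATGTAA, searched on both strands, was found at 2 places in Per3 (0.819% of all windows), and the Rev-erb and ROR core TAGGTCA, likewise, in Nfil3 (2.23%). The windows of Dbp, Nr1d1, Nr1d2, Arntl and Npas2 do not hold these letters. The 5 windows below were picked because they hold a motif and belong to genes that passed at 21 days, with the motif in capitals. Ciart holds 3 E-boxes, which begin 116, 58 and 44 bases before the start, and in Nfil3 the core lies on the other strand.
Ciart, chr3:95882229-95882478, minus strand: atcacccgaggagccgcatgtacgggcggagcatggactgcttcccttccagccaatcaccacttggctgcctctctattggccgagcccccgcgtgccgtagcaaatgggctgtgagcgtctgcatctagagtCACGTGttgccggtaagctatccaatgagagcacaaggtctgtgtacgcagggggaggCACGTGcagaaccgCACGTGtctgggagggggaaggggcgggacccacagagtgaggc
Per1, chr11:69098699-69098948, plus strand: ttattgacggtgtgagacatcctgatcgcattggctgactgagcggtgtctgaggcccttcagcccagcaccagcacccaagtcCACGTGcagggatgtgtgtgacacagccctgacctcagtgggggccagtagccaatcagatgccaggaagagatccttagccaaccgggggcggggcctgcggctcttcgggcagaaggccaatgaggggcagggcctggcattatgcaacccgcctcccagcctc
Tef, chr15:81811164-81811413, plus strand: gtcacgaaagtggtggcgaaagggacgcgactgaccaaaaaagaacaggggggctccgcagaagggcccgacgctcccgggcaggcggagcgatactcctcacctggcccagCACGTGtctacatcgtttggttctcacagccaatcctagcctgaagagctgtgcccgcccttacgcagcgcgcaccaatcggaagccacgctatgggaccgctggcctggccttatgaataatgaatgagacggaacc
Per3, chr4:151044666-151044915, minus strand: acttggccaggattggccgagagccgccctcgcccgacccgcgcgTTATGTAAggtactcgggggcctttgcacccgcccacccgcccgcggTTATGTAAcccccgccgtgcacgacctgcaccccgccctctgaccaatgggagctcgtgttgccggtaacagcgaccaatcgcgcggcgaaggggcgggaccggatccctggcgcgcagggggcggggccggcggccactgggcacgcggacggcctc
Nfil3, chr13:52981040-52981289, minus strand: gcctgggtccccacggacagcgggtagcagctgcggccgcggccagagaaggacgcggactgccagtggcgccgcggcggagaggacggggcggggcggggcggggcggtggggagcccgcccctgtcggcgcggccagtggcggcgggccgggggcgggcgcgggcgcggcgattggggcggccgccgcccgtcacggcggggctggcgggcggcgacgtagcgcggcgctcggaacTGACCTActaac

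At 21 days genes of opposite phases of the clock differed from the earlier days in opposite directions. Ciart, a repressor of the BMAL1 complex, was 10.6-fold higher than on the earlier days and Dbp, an activator of D-box genes, 9.45-fold. Arntl was 4.38-fold lower, Nfil3 (a D-box repressor) 4.38-fold lower and Npas2 2.34-fold lower. Of all 19797 genes tested in limma, 354 (1.79%) had an adjusted p under 0.05, 152 of them up-regulated (0.768%) and 202 down-regulated (1.02%) at 21 days, and 65 changed at least 2-fold, a log2 difference of 1. An unadjusted p under 0.05 was reached by 3528 genes (17.8%). All values are log2 signals relative to the 75th percentile of their array, so 0 lies at that percentile. In bulk tissue, fewer cells of a type cannot be told apart from less RNA per cell.

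The size of this set rested on few arrays. Without CRC + E171 female 1 of 21 days 37 genes passed, without CRC + E171 female 2 70, without CRC female 1 113 and without CRC + E171 male 1 153. Among the earlier arrays, leaving out CRC male 1 of 7 days gave 620 genes, and each of 7 others (CRC female 2, CRC + E171 female 1 and CRC + E171 female 2 of 2 days, CRC + E171 female 1 and CRC + E171 male 2 of 7 days, CRC female 2 and CRC male 1 of 14 days) gave 205 to 231. Scan day as a term left 117 genes, all among the 354. The share of up-regulated genes differed between settings. It was 42.9% here, 45.3% with the authors' values, 65.0% after quantile normalization and 68.8% after normexp background correction, and with the highest probe of each gene 185 of 292 genes were up-regulated.

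Other tissue and missing tissue were seen on some arrays of either kind. A median over list genes more than 2 log2 units above the mean marked 5 arrays with squamous epithelium, 2 of them at 21 days (CRC female 1 and CRC + E171 female 1), and 5 with pancreatic acinar genes, 1 of them at 21 days (CRC + E171 female 2). Posterior Hox genes were as far below the mean on 2 earlier arrays, and colonocyte genes on 2 (both CRC males of 7 days). Some arrays were marked by more than 1 list. Outside the 12 arrays so marked, CRC + E171 female 1 of 14 days was high in small intestine genes (4.82) and CRC + E171 female 1 of 7 days in hepatocyte genes (2.78). The former also had the highest earlier Slc2a5 (0.82) and Usp2 (1.98), and this array's part in their differences was not tested. All 15 colonocyte genes were well above background on each of the 7 arrays of 21 days, and 13 to 15 on the earlier ones. Without the 5 squamous arrays 42 genes passed, without the 5 acinar arrays 62, without the 2 low in Hox 226 and without the 2 low in colonocyte genes 834. With all 12 marked arrays left out, 4 arrays of 21 days remained and 0 genes passed (smallest adjusted p = 0.0802). The differences there were 3.37 for Ciart, 3.14 for Dbp, -2.11 for Arntl and -1.31 for Npas2. One array, labelled male 2 of CRC 14 days, had an Xist level that went against its label, and 480 genes passed without it.

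**Figure D1:**
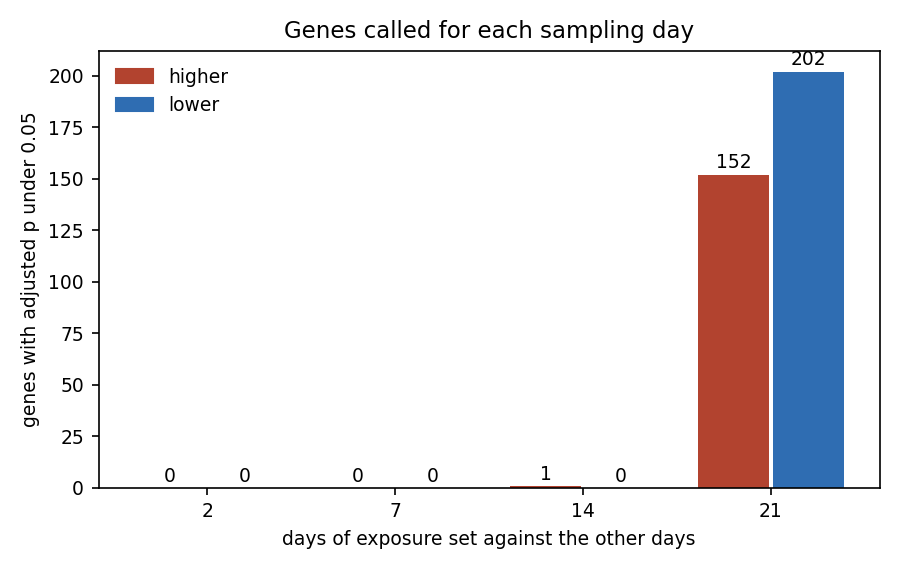
Bars count the genes with an adjusted p under 0.05 when the arrays of one sampling day are set against all others with treatment as a term. The arrays of 21 days gave 152 up- and 202 down-regulated genes, those of 14 days 1 and those of 2 and 7 days 0.

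The same model with another day in place of 21 days gave 0 genes for 2 days (2194 at an unadjusted p under 0.05, 11.1%), 0 for 7 days (1458, 7.36%) and 1 (0.00505%) for 14 days, Gm28497 (1111, 5.61%). These comparisons share arrays. In a fit over the 8 groups, 21 days differed from 2 days in 74 genes (0.374%), from 7 days in 31 (0.157%) and from 14 days in 20 (0.101%). The 8 genes that passed against each of the 3 days were Ciart, Arntl, Npas2, E2f2, Fam180a, Lefty1, B930025P03Rik and R3hdm2, the last 2 of them named after their values were seen. Of these, Fam180a was well above background on 4 of the 24 earlier arrays and so entered the test mainly through the 21 day arrays. Ciart was higher by 2.95 than at 2 days (adjusted p = 0.0126), by 3.89 than at 7 days (adjusted p = 0.0024) and by 3.39 than at 14 days (adjusted p = 0.00805). Without single arrays of 21 days these counts ranged from 10 to 153, from 8 to 166 and from 3 to 214.

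Ciart was at -1.83, -2.03 and -1.66 on the 3 CRC arrays of 21 days and at -1.50, -1.40, -2.32 and -2.34 on the 4 CRC + E171 arrays. The 24 earlier arrays ran from -6.70 over a median of -5.42 to -2.86, so the sets did not overlap. The log2 difference was 3.40 (SE 0.44, adjusted p = 0.000203), with 2.74 and 4.06 at the 2 probes. Under the 15 alternatives tried for single genes it lay between 2.41 and 3.51. It was 3.35, 3.79 and 2.73 within the 3 scan days. The 5 genes whose arrays did not overlap (0.0253% of all genes with a value on each array) were Ciart, Dbp, Arntl, Npas2 and E2f2, all of which passed the test.

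Dbp lay between 4.98 and 6.13 at 21 days (median 5.43). Among the earlier arrays it ran from -0.29 to 4.70 around a median of 1.52, and 6 of these 24 arrays were above 3.6. The difference was 3.24 (SE 0.60, adjusted p = 0.00761). For Dbp the day means before 21 days were 2.36, 1.78 and 2.35, so no rise towards the last day preceded it. The 21 day arrays also varied less, with an SD of 0.36 (n = 7) against 1.59 (n = 24).

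Of the 13 clock repressors and D-box activators tested, 6 rose and 0 fell (0.768% and 1.02% over all genes), and 11 had a higher and 1 a lower value at an unadjusted p under 0.05 (7.52% and 10.3%). The count of 6 was 2 without CRC + E171 female 1 of 21 days, 2 without CRC + E171 female 2, 3 without CRC female 1, 4 without CRC + E171 male 1, 3 without the squamous or the acinar arrays and 0 without all marked arrays. The median log2 difference was 0.91, against -0.04 over all genes tested. Besides Ciart and Dbp these were Nr1d2 (1.75, adjusted p = 0.0226), the Period gene Per3 (1.55, adjusted p = 0.0378), Tef (1.53, adjusted p = 0.0221), a relative of Dbp, and Per1 (0.78, adjusted p = 0.0413). The probes of Per1 disagreed, with -0.09 for one and 1.66 for the other. Nr1d1, which encodes Rev-erb alpha, had the third largest difference of the list (2.53, SE 0.82) but did not pass (adjusted p = 0.0964), since it ranged from -5.18 to 1.29 on the earlier arrays and from -0.26 to 1.57 at 21 days.

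The other members did not pass. Per2 differed by 0.75, Cry2 by 0.52, Hlf by 0.86, Bhlhe40 by 0.64 (adjusted p = 0.0549) and Bhlhe41 by 0.91 (adjusted p = 0.064). Cry1, a cryptochrome that peaks later than the Period genes, was at -0.65 (adjusted p = 0.249). Its 7 arrays of 21 days lay from -4.76 to -3.97, within the earlier range of -5.28 to -2.46.

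**Figure D2:**
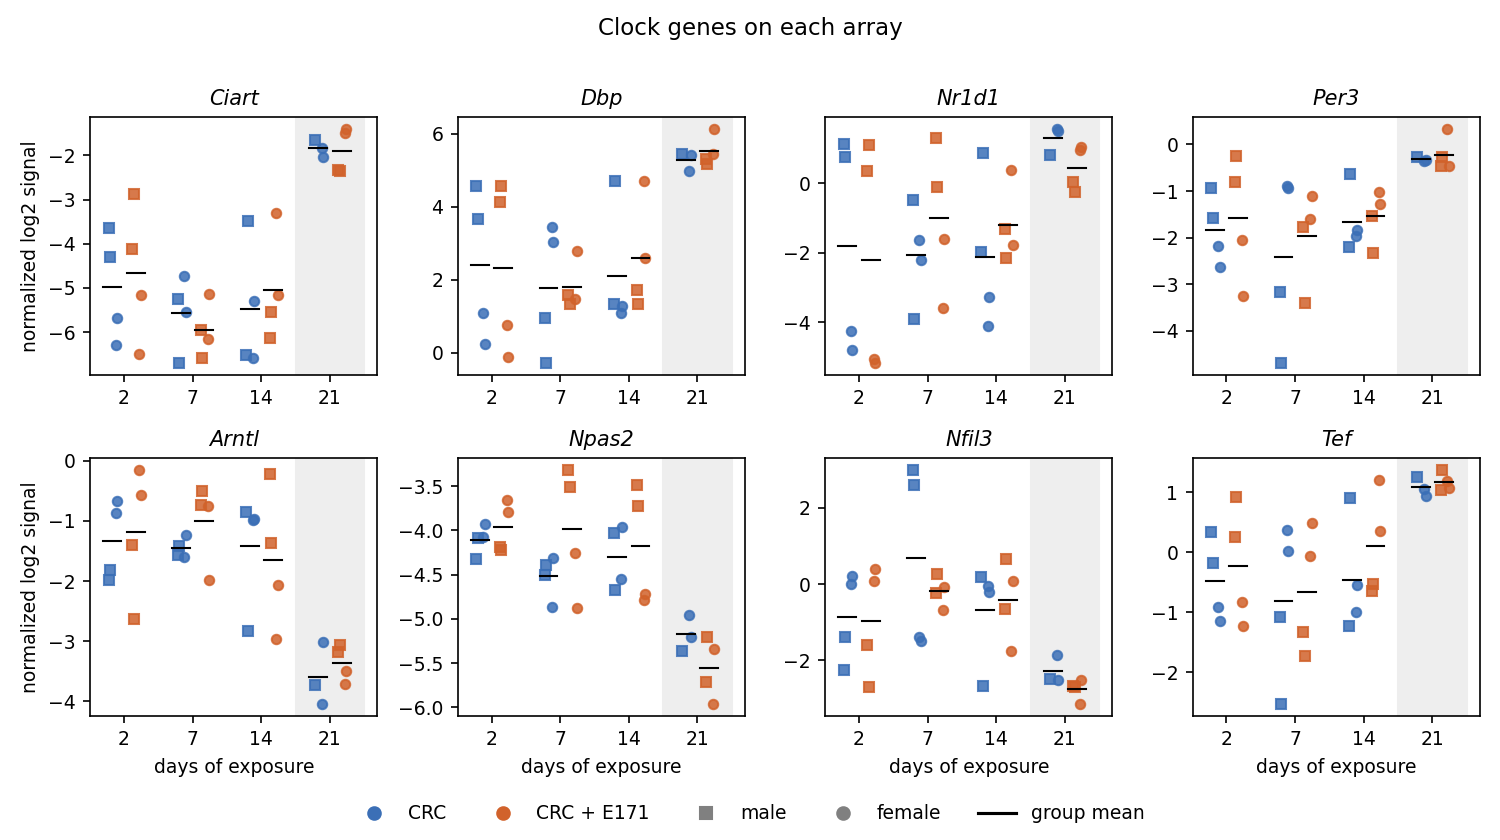
Normalized log2 signal of 8 clock genes (vertical axes) on each of the 31 arrays by days of exposure, in blue for CRC and orange for CRC + E171, with squares for males, circles for females and bars for group means. The 7 arrays of 21 days (grey band) lie close together, above all earlier arrays for Ciart and Dbp and below all for Arntl and Npas2.

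Of the 6 genes of the activating arm and the opposite phase, 3 fell (1.02% over all genes) and 0 rose, with a median of -0.68, or -0.33 with normexp. The count of 3 was 2 without the squamous, acinar or Hox arrays or without any 1 of 5 arrays of 21 days, and 0 without all marked arrays. Arntl was at -4.04, -3.01 and -3.72 on the CRC arrays of 21 days and at -3.71, -3.50, -3.19 and -3.06 on those with E171. The earlier arrays reached from -2.96 to -0.15 with a median of -1.30, all of them higher. The difference was -2.13 (SE 0.31, adjusted p = 0.00058), with all 3 probes between -2.31 and -1.93.

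Npas2, the partner that can replace CLOCK, ran from -5.96 to -4.95 at 21 days (median -5.34) and from -4.87 to -3.32 before. It differed by -1.22 (SE 0.18, adjusted p = 0.000822), without overlap, and was well above background on 6 of the 7 arrays of 21 days. With normexp the difference was -0.64. Nfil3 ran from -3.15 to -1.87 against -2.71 to 2.999 before, and these ranges overlapped (-2.13, SE 0.53, adjusted p = 0.0354). Clock itself (-0.14, adjusted p = 0.649) and Rora (-0.14, adjusted p = 0.773), a nuclear receptor that competes with Rev-erb, did not pass.

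Of 15 further genes tied to the clock or known as rhythmic, 1 rose and 1 fell (0.768% and 1.02% over all genes), with a median of 0.06. Usp2, a deubiquitinating enzyme of the loop, was higher by 1.44 (SE 0.33, adjusted p = 0.0225) and ran from -0.04 to 1.30 at 21 days, with earlier arrays up to 1.98. Csnk1d, a kinase that marks PER proteins for decay, was lower by 0.34 on the log2 scale, as the difference of -0.34 gives it (adjusted p = 0.0286). Its 4 probes ran from -0.81 to -0.01, it passed under 6 of the 15 alternatives (-0.15 with normexp), and with scan day as a term its adjusted p was 0.0575. Wee1, a cell cycle kinase with clock control, differed by 0.88 (adjusted p = 0.112), and Nampt, Por, Pdxk, Gpcpd1 and Csnk1e lay between -0.09 and 0.19.

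Each treatment was also tested on its own. The CRC contrast, which shares no array with the CRC + E171 contrast, gave 1 gene (0.00505%), B930025P03Rik, at an adjusted p under 0.05 and 982 at an unadjusted one (4.96%). The CRC + E171 contrast gave 303 (1.53%), 143 up-regulated (0.722%) and 160 down-regulated (0.808%). Without CRC + E171 female 2 the latter count was 0, without female 1 it was 1, without male 1 it was 41 and without male 2 it was 714. Without any 1 of the 3 CRC arrays of 21 days it was 136 to 143, and the CRC count was 0 without CRC male 1.

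For Ciart the difference was 3.49 (SE 0.66, adjusted p = 0.143) in CRC and 3.33 (SE 0.59, adjusted p = 0.0101) in CRC + E171. In CRC alone 0 of the 34 clock list genes passed. For Dbp it was 3.19 (SE 0.97) and 3.28 (SE 0.86), and for Arntl -2.19 (SE 0.48) and -2.08 (SE 0.43). Nr1d1 gave 3.29 (SE 1.31) and 1.92 (SE 1.17), Npas2 -0.86 (SE 0.27) and -1.51 (SE 0.24), and Per1 0.41 (SE 0.23) and 1.08 (SE 0.21). The interaction, which tests whether the shift differed between treatments, passed for 0 genes in limma (smallest adjusted p = 0.333) and had an unadjusted p under 0.05 for 1123 (5.67%). It was -0.17 for Ciart, 0.10 for Dbp and 0.11 for Arntl, with SE of 0.89, 1.30 and 0.65. With errors of this size, a missed threshold does not show that the treatments shifted alike.

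All 354 genes of the joint comparison had the same sign in both treatments, which the pooling favours. Of the 303 genes called with E171 alone, 240 (79.2%) had the same sign in CRC, against 61.9% of all genes, and 55 (18.2%) also had an unadjusted p under 0.05 there, against 3.98% of all genes. Arrays of both contrasts shared slides with 7 day arrays of the other treatment.

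**Figure D3:**
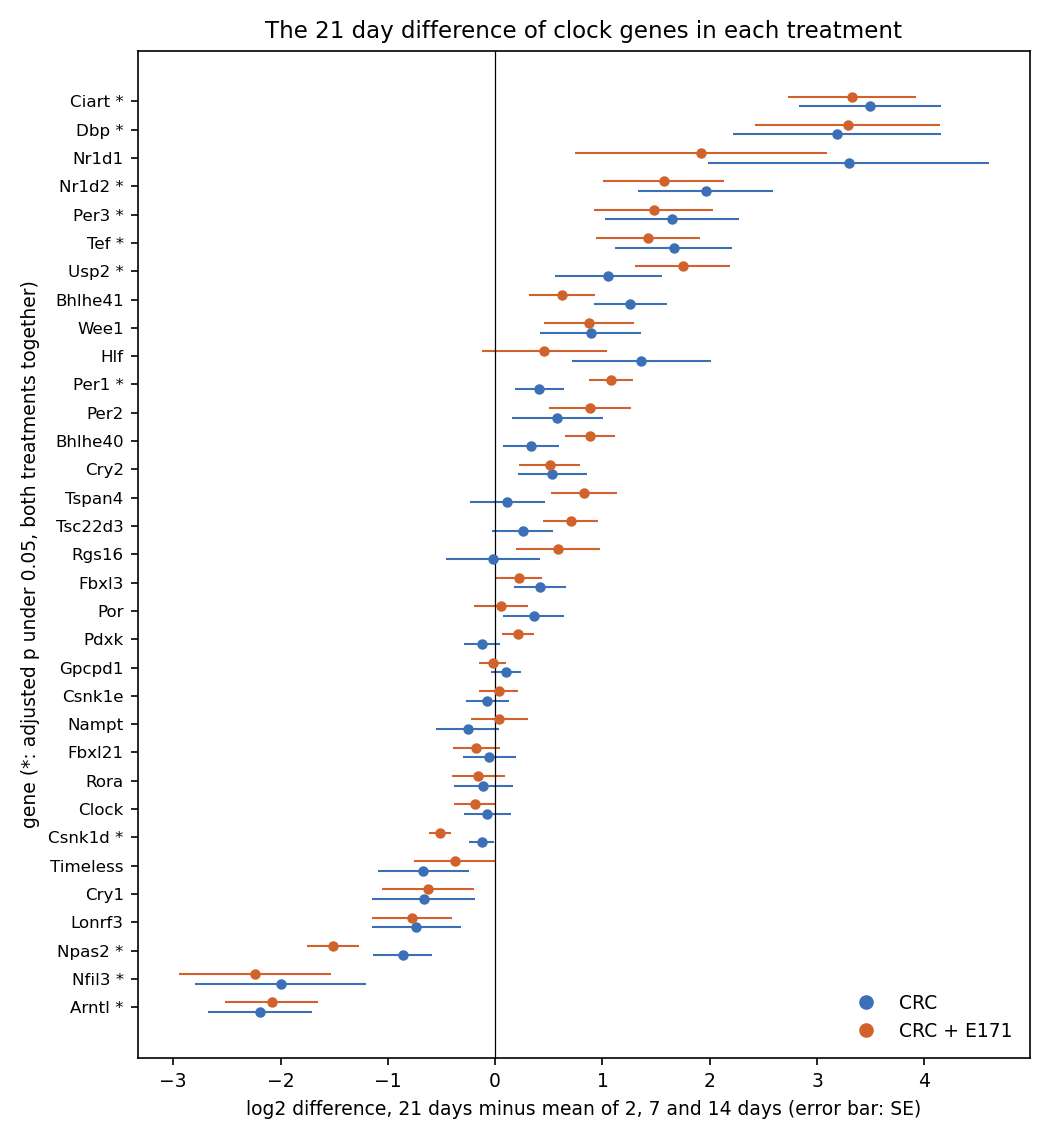
Log2 difference between 21 days and the mean of the earlier days (horizontal axis, error bars SE) for genes of the 3 clock lists, in blue for CRC and orange for CRC + E171, with a star where the joint comparison passed. Ciart and Dbp lie above 3 and Arntl and Nfil3 near -2 in both treatments.

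The slides that hold the 21 day arrays hold only 7 day arrays of the other treatment besides. On each slide day and treatment thus go together, so a difference within slides can be read as one of day only if the treatments shifted alike. Among these 15 arrays, with slide and treatment as terms, 21 and 7 days differed in 7 genes (0.0354%), and 1839 reached an unadjusted p under 0.05 (9.29%). The genes were Ciart (3.89), Lefty1 (1.60), Arntl (-2.25), C6 (-2.05), Gzmb (-2.49), Gzma (-2.34) and Gbp9 (-1.58), the last 2 of which had not passed in the comparison of all arrays. Gzma and Gbp9 were named after their values were seen. Without CRC female 2 of 21 days 4 genes passed. Dbp differed by 3.65 (adjusted p = 0.0507) and E2f2 by -1.93 (adjusted p = 0.0507). With scan day as a term in the comparison of all arrays, Ciart (3.39, adjusted p = 0.000446), Dbp (3.19, adjusted p = 0.0204), Arntl (-2.11, adjusted p = 0.00199) and Npas2 (-1.20, adjusted p = 0.00357) passed, while Nr1d2 (1.65, adjusted p = 0.051), Nfil3 (-2.12, adjusted p = 0.0628), Per3 (1.49, adjusted p = 0.0773) and Usp2 (1.33, adjusted p = 0.0568) kept their direction and did not pass. Within the 3 scan days, each with 4, 2 or 1 arrays of 21 days, the Arntl difference was -2.33, -2.08 and -1.43.

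On the earlier days the levels of these clock genes also varied between mice. Across the 24 earlier arrays Arntl ran against Ciart with a Pearson's r of -0.824 (permutation p = 1e-05, the smallest that 100000 resamples can give, adjusted p = 3e-05 over 3 relations) and a Spearman's rho of -0.729 (permutation p = 8e-05, adjusted p = 0.00024). Without the 2 arrays farthest from the median of Ciart r was -0.744, and within the 3 scan days -0.931, -0.59 and -0.874. Against Dbp r was -0.773 (permutation p = 2e-05, adjusted p = 3e-05) with a rho of -0.674 (permutation p = 0.00054, adjusted p = 0.00081). It was -0.686 without the 2 farthest arrays and -0.786, -0.542 and -0.961 within scan days. Against Nr1d1 r was -0.595 (permutation p = 0.00206, adjusted p = 0.00206) and rho -0.533 (permutation p = 0.00768, adjusted p = 0.00768), with -0.508 without the 2 farthest arrays and -0.44, -0.698 and -0.694 within scan days. These p-values take the 24 arrays as exchangeable across days and sexes. With each gene centred on its mean per day and labelled sex (6 sets) and resampling inside the sets, r was -0.826 for Ciart (permutation p = 0.00045, adjusted p = 0.00135), -0.697 for Dbp (permutation p = 0.0126, adjusted p = 0.0189) and -0.509 for Nr1d1 (permutation p = 0.0492, adjusted p = 0.0492). Of 14 days, CRC male 2 (Ciart -3.49, Arntl -2.84) and CRC + E171 female 1 (-3.31 and -2.96) had the highest Ciart and lowest Arntl of their sets. The former is the array whose Xist level went against its label. The centred r was not computed without these arrays, so its hold across days and sexes was not tested.

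After 2 days of exposure the arrays fell apart by labelled sex, in both treatments. The 4 males had Dbp between 3.67 and 4.57 and Nr1d1 between 0.36 and 1.13, and the 4 females Dbp between -0.11 and 1.09 and Nr1d1 between -5.18 and -4.25. At 7 days the females were the higher ones for Dbp (1.48 to 3.43 against -0.29 to 1.57), with overlap. At 21 days the 3 males had Dbp from 5.17 to 5.43, within the range of the 4 females (4.98 to 6.13). Of the 34 clock list genes, 4 had the sexes apart at 21 days, Timeless (females -1.54 to -0.83, males -0.73 to -0.14), Nr1d1 (females 0.96 to 1.57, males -0.26 to 0.83), Hlf (females -1.94 to -1.30, males -0.61 to 0.25) and Per2 (females -0.97 to -0.53, males -0.51 to -0.10). With 3 males against 4 females such separations also arise by chance. The share of all genes with the sexes apart was not computed, so the count of 4 says nothing particular about the clock lists. The sex difference was seen in these values and not tested. With labelled sex as a term 321 genes passed at 21 days.

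The 5 genes whose pattern over the 31 arrays, centred by treatment, was most like that of Ciart were Dbp (Pearson's r of 0.921), Lefty1 (0.875), Tef (0.873), Nr1d2 (0.853) and Tns4 (0.823). Lefty1 encodes an inhibitor of Nodal signals and rose by 1.54 (SE 0.23, adjusted p = 0.000822), and Tns4, a tensin of cell adhesions, differed by 0.81 (adjusted p = 0.0851). These likenesses contain the 21 day arrays. Over the 24 earlier arrays alone they were 0.852, 0.734, 0.816, 0.772 and 0.824, in the same order, all on the same slides and scaling.

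Genes that answer to glucocorticoids, which follow a daily rhythm of their own, formed another list. Of 12 tested, 3 rose (0.768% over all genes) and 0 fell, with a median of 0.63, and 6 were higher at an unadjusted p under 0.05 (7.52% over all genes). Zbtb16, a transcriptional repressor, ran from -1.50 over a median of -0.98 to -0.31 at 21 days and from -3.62 over -2.09 to -0.96 before (1.41, SE 0.28, adjusted p = 0.0117). Its ranges overlapped. Hif3a, of the hypoxia-inducible factor family, rose by 1.10 (SE 0.21, adjusted p = 0.00865) and Klf9, also a clock-linked factor and named after its value was seen, by 0.71 (adjusted p = 0.0136). The classical target Fkbp5 differed by 0.76 (adjusted p = 0.109), Sgk1 by 0.70 (adjusted p = 0.238) and Tsc22d3 by 0.51 (adjusted p = 0.181), while the receptor gene Nr3c1 was at -0.22. Klf15, a factor outside the list, rose by 1.63 (adjusted p = 0.0413).

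The largest increases outside the clock were in genes of mixed known roles. Scnn1g encodes the gamma subunit of the epithelial sodium channel, which takes up sodium in the distal colon. It ran from -0.12 to 2.54 at 21 days (median 0.45) and from -7.08 to 1.48 before (median -2.22), a difference of 2.97 (SE 0.78, adjusted p = 0.0451) with overlap. Scnn1g was at -5.89 and -5.03 on the 2 earlier arrays low in Hox genes. On the 2 low in colonocyte genes it was at -2.88 and -7.08. The posterior Hox list had a median difference of 0.65 (0 of 9 called), and of 0.075 without all marked arrays. How far the Scnn1g difference follows tissue content was not tested. Slc2a5, the fructose carrier, differed by 2.36 (SE 0.60, adjusted p = 0.0396), from -0.85 to 0.30 against -6.73 to 0.82. The beta-defensin gene Defb36 rose by 2.20 (adjusted p = 0.0261) and Cd207, the langerin of dendritic cells, by 1.76 (adjusted p = 0.0114). All of these kept their direction under 15 alternatives, of which Scnn1g passed in 3 (1.91 to 3.13), Slc2a5 in 5, Klf15 in 5, Defb36 in 9 (1.17 with normexp) and Cd207 in 14 (1.19 with normexp). Scan day as a term is not among these 15. With it Scnn1g (adjusted p = 0.0919), Slc2a5 (0.0706), Defb36 (0.0595) and Klf15 (0.0763) did not pass, and Cd207 (0.0288) did.

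Nat8f5, of an N-acetyltransferase family, rose by 2.56 (adjusted p = 0.00701) and Tmem132c by 1.91 (adjusted p = 0.0233). Atp13a4, a P-type ATPase, rose by 2.94 (SE 0.74, adjusted p = 0.0372) and was well above background on 7 of 7 arrays of 21 days and on 12 of 24 earlier ones. Under the 15 alternatives Atp13a4 passed in 7 (1.52 to 3.25), Tmem132c in 10 (1.12 to 2.06) and Nat8f5 in 14 (1.76 to 2.82), each lowest with normexp. With scan day as a term Atp13a4 (adjusted p = 0.0673) and Tmem132c (0.0547) did not pass, and Nat8f5 (0.0199) did. Fam180a rose by 2.17 (adjusted p = 0.000822), with 7 of 7 against 4 of 24 arrays above background, so most of its earlier values lie near background, and the difference was 0.90 with normexp. Its lowest value at 21 days was -5.28 and its highest before -4.76, so the sets overlapped.

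**Figure D4:**
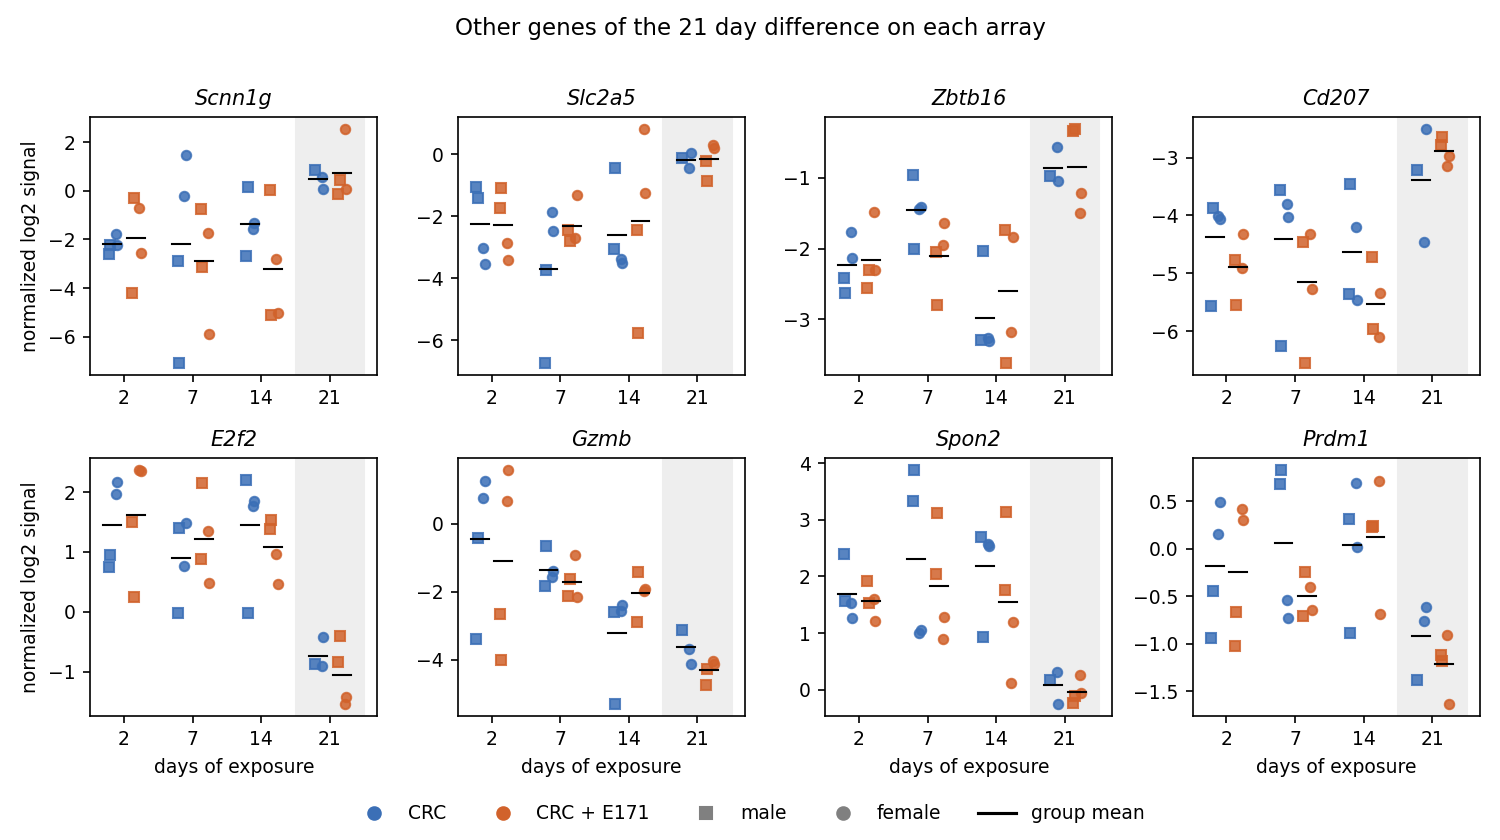
Normalized log2 signal (vertical axes) of 8 genes outside the clock lists on each array by days of exposure, drawn as for the clock genes. Only E2f2 shows no overlap between 21 days and the earlier arrays, at -0.41 or less against -0.03 or more.

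The largest decreases outside the clock were also in genes of mixed known roles. E2f2, which drives entry into S phase, was at -0.91, -0.42 and -0.88 on the CRC arrays of 21 days and at -1.54, -1.42, -0.84 and -0.41 with E171. All earlier arrays were higher, from -0.03 to 2.37 (median 1.39). The difference was -2.20 (SE 0.29, adjusted p = 0.000228) over both treatments, -2.005 (SE 0.45, adjusted p = 0.371) in CRC and -2.36 (SE 0.41, adjusted p = 0.0101) in CRC + E171. The 22 proliferation genes did not pass singly, with 0 called and a median of -0.32, and 21 of them lay below 0 (55.2% of all genes), from Rrm2 (-0.91, adjusted p = 0.193) to Ccnb2 (0.03).

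Gzmb, the granzyme B of cytotoxic lymphocytes, ran from -4.75 to -3.13 at 21 days and from -5.31 to 1.59 before (-2.37, SE 0.62, adjusted p = 0.044). The earlier day means fell from -0.77 at 2 days to -1.53 and -2.63, so its values at 14 days lay closest to those of 21 days. The complement component C6 (-1.49, adjusted p = 0.0109) and Spon2, a matrix protein that binds microbes (-1.82, adjusted p = 0.00865), also fell. Prdm1, the regulator of plasma cells, fell by 0.95 on the log2 scale (adjusted p = 0.0354), Fcgr1, an Fc receptor of macrophages, by 0.94 (adjusted p = 0.0471) and the RNA sensor Ddx58 by 0.99 (adjusted p = 0.0227). Prdm1 was the only called gene of 10 on the plasma cell list (median -0.29, with -0.42 in CRC and -0.01 in CRC + E171). Fcgr1 was the only one of 14 on the macrophage list (median -0.23, 4 above 0), against 1.02% of all genes called lower. Hspa5, a chaperone of the endoplasmic reticulum, fell by 0.66 (adjusted p = 0.0313). Under the 15 alternatives Gzmb lay between -2.56 and -1.98 but passed in 2, while Spon2 passed in 14, C6 in 13 (-0.76 with normexp), Ddx58 in 9, and Prdm1 and Hspa5 in 7 each. With scan day as a term Gzmb (adjusted p = 0.0706), Prdm1 (0.0628) and Fcgr1 (0.0673) did not pass, and the other genes of this paragraph did.

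Some of these genes were not well above background at 21 days. Mmp25, a membrane-bound matrix metallopeptidase, was well above background on 0 of 7 arrays of 21 days and on 16 of 24 earlier ones, and was at least 1.72-fold lower (adjusted p = 0.0221). Gpr55, a lipid receptor, showed 0 of 7 and 20 of 24 arrays and was at least 1.40-fold lower (adjusted p = 0.0326). These bounds set the earlier mean against the lowest signal above background on each array. Klri1, a receptor gene of natural killer cells, was above background on 0 of 7 and 10 of 24 arrays (adjusted p = 0.0396), and no fold is given. The cytokine gene Csf2 was measured on 1 of 7 arrays of 21 days and on 22 of 24 earlier ones, and its fitted difference of -1.54 (adjusted p = 0.0441) lay between -1.74 and -0.64 under the alternatives. C6 was measured on 4 of the 7 and Adamts4, an aggrecan-cleaving protease (-2.42, adjusted p = 0.0441, but -1.29 with normexp and -4.02 with the authors' values), on 6. The mast cell protease pseudogene Mcpt-ps1 fell by 1.56 (adjusted p = 0.0413), and its probe may also read close relatives of this large family. Mcpt-ps1 and Fcgr1 passed under 1 of 15 alternatives each, Adamts4 and Csf2 under 3 and Gpr55 under 5. With scan day as a term Mmp25 passed (adjusted p = 0.0468). Csf2, Gpr55, Klri1, Mcpt-ps1 and Adamts4 did not, with adjusted p from 0.0547 to 0.0858.

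The marker lists of cell types gave 0 called members for T cells (13 tested, median -0.81), B cells (13, -0.79), MHC class II (10, -0.75) and neutrophils (15, -0.75), against 1.02% of all genes called lower. Of these lists 0, 1, 0 and 1 genes lay above 0, while 55.2% of all genes lay below it. The neutrophil median of single arrays reached 4.32 and 5.29 on the CRC males of 7 days and 3.19 on CRC + E171 male 2 of 14 days. Its difference was -1.24 in CRC and -0.52 in CRC + E171, and over both it lay between -0.99 and -0.38 under the alternatives. Those CRC males of 7 days also held the highest values of Adamts4, Csf2 and Nfil3. On the 7 arrays of 21 days the T cell median ran from -1.64 to 1.58 and the B cell median from -2.96 to 2.10, nearly as wide as before (-2.04 to 2.00 and -2.84 to 2.34). The array with the highest values was CRC female 2 and that with the lowest CRC female 1. Without CRC female 2 the differences of Gzmb (-2.34), C6 (-1.48), Ddx58 (-1.06), Prdm1 (-1.02) and Fcgr1 (-0.84) kept their direction, as they did without CRC female 1 (-2.42, -1.47, -0.96, -0.99 and -1.03). Gzmb (adjusted p = 0.0699) and Fcgr1 (adjusted p = 0.0992) did not pass without CRC female 2. Without CRC female 1 only C6 passed (adjusted p = 0.027), and the others had adjusted p from 0.0544 to 0.0719. Colonocytes (0.18), goblet cells (0.38), smooth muscle (0.33) and fibroblasts (0.13) also had 0 called members. Squamous epithelium had the highest median of all lists, 1.16, with 0 of 11 called, and ran from -0.92 to 6.33 at 21 days. Within the 3 scan days its median difference was 2.15, -0.37 and -0.73, and that of the T cells -0.99, -1.50 and 1.67.

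Lists of other states held few or no called members. None of 23 immediate-early genes, 17 genes of fasting and fatty acid oxidation or 21 of sterol and fatty acid synthesis passed in limma, and 5, 0 and 5 of them were lower and 0 higher at an unadjusted p under 0.05 (10.3% and 7.52% over all genes). Their medians were -0.11, 0.07 and -0.23. Of 16 heat shock and cold-inducible genes, 1 fell (Hspa5), and of 20 interferon-stimulated genes 1 fell (Ddx58, median -0.62) and 1 lay above 0, against 1.02% of all genes called lower. The p53 and alkylation repair genes (median 0.01) and the NRF2 targets (-0.11) had 0 called members.

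**Figure D5:**
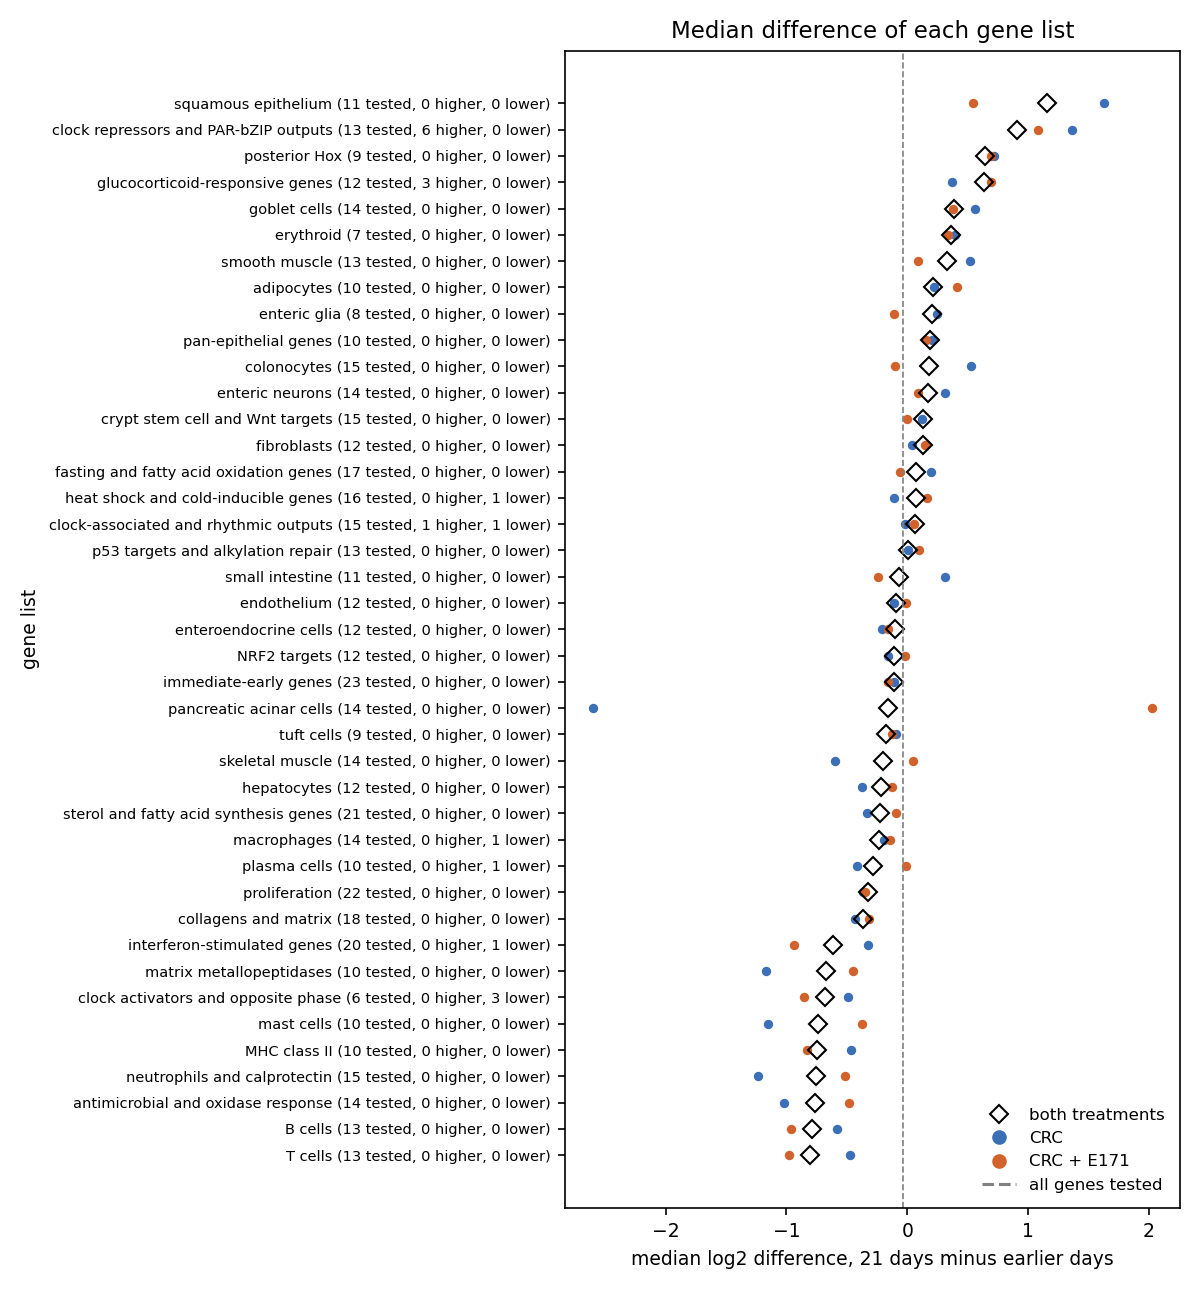
Median log2 difference between 21 days and the earlier days (horizontal axis) over the tested genes of each list, as a diamond for both treatments together and dots for each, with the number tested and called beside the name and the median of all genes (-0.04) as a dashed line. The clock repressors (0.91, 6 of 13 higher), the genes of the opposite phase (-0.68, 3 of 6 lower) and the glucocorticoid-responsive genes (0.63, 3 of 12 higher) hold the most called members.

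The 75th percentile of the signal was 1698 to 5425 at 21 days and 1882 to 6485 before, and 66.6 to 75.2% against 65.8 to 77.8% of the probes were well above background. Over 6 measures, an exact permutation test within treatments (828100 regroupings, two-sided) gave p from 0.128 to 0.736, and adjusted p from 0.569 to 0.736. Such a test does not show single earlier arrays that stand out. The median coefficient of variation of the signal was 12.8% on CRC + E171 female 1 and 14.5% on CRC + E171 male 1 of 14 days, and at most 3.85% on the others. That male 1 array also had the most flagged probes (140). The number of arrays limits the precision, and the median SE of a log2 difference was 0.19.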

How the data were processed

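Distal colon RNA was measured on 31 one-colour arrays, 1 per mouse, grouped by the labels. The authors deposited Feature Extraction output (the methods name version 10.7.3.1 for quality control) with, per spot, a background-subtracted processed signal (intensity), not normalized between arrays. The authors also deposited a matrix of log2 values, normalized between arrays by a method not given in the sources used here, which served as an alternative.

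Here the log2 processed signal minus that of the 75th percentile of the array was used, after averaging unflagged spots of a probe. A probe was kept if in at least 1 group 60% of the arrays were well above background with a mean log2 signal of 4 or more (42787 of 56605 probes). Probes were matched to RefSeq genes by accession (32994), symbol (10224) or synonym (520), 12867 matched none, and probes of a gene were averaged to 19797 genes. limma 3.58.1 (R 4.3.3) tested 21 days against the earlier days with treatment as a term, and all other contrasts over 8 groups, with Benjamini-Hochberg adjustment and a threshold of 0.05. The scripts were tested on simulated data.

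Genes were named by rule: per direction the 12 with the biggest log2 difference that passed and had 1 sign in both treatments (clone and predicted names left out), every tested gene of the 3 clock lists (1 is not reported here, though it counts in its list), the 2 called genes of each other list with the largest difference, and the 5 genes most like the leading clock gene. All other genes given with values, among them Fkbp5, Sgk1, Nr3c1, Rrm2 and Ccnb2, were named after their values were seen. The members and lists were chosen with earlier results of these data known, and a list's value is its count and median without a test. Alternatives were quantile normalization, normexp (offset 50), the authors' values, other filters and probe choices, 8 group means, terms for sex, replicate number, slide or scan day, other variance models and thresholds, and leaving out days or single arrays. Leaving out arrays by marker genes (score limit 2) and centring by day and sex were chosen after seeing the data.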

Additional observations from a re-analysis of the deposited data

Results flagged for a closer look

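On the 7 arrays of 21 days, 1 array stood apart from the others in 6 of the 59 genes looked at, and chance alone separates about 1 in 20 such sets. CRC + E171 female 1 was the highest for Scnn1g (2.54, with the next at 0.84), Per3 (0.33, next -0.28) and Bhlhe40 (3.5, next 2.65). CRC + E171 female 2 was the highest for Dbp (6.13, next 5.46). CRC female 1 was the lowest for Cd207 (-4.45, next -3.21) and the highest for Fcgr1 (-1.42, next -2.17). CRC + E171 female 1 and CRC female 1 are the arrays of 21 days with squamous epithelium genes (list medians of 3.01 and 6.33), and CRC + E171 female 2 is the one with pancreatic acinar genes (9.97). With the array that stood apart left out in turn, the difference between 21 days and the earlier days was 2.61 for Scnn1g, 1.47 for Per3, 0.48 for Bhlhe40, 3.13 for Dbp, 2.05 for Cd207 and -1.03 for Fcgr1, of which Dbp and Cd207 passed.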

How the results depend on the processing

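The 21 day count of 354 was 205 with normexp, 190 with the authors' values, 177 without a filter, 194 with 8 group means, 117 with scan day, 695 with array weights, 1142 with a 1.5-fold change and unadjusted p, 169 with a 1.5-fold change and adjusted p, 69 without the 2 day and 125 without the 14 day arrays, and 37 to 620 without single arrays. Leaving out arrays by marker genes gave 42 (squamous), 62 (acinar), 226 (Hox), 834 (colonocyte) and 0 (all 12). The other alternatives gave 260 to 480. For CRC alone (1 gene) the count was 3 with normexp, 0 with the authors' values, 2 with the replicate block and 0 to 1 without single arrays. For CRC + E171 (303) it was 135 with quantile normalization, 156 with normexp, 199 with the authors' values and 0 to 714. Against 2 days (74) it was 112 with quantile normalization, 29 with the authors' values, 152 with the replicate block and 10 to 153. Against 7 days (31) it was 19 with quantile normalization, 15 with the authors' values, 20 with the replicate block and 8 to 166 without single arrays. Against 14 days (20) it was 12 with quantile normalization, 36 with normexp, 41 with the authors' values, 10 with the replicate block, 12 with slide as a random block and 3 to 214. The interaction stayed at 0 throughout, and within slides (7) the count was 13 without the slide term and 4 to 7. The cause of these moves was not tested. A replicate block of sex and number gave 312 genes for the joint comparison, and no label ties a number to a litter or day, although all arrays numbered 1 lay on slides 1 to 4 (scan days 1 and 2) and all numbered 2 on slides 5 to 8 (scan days 2 and 3). Same-numbered arrays of different groups had correlations of their deviations from -0.41 to 0.624.

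Among the named genes, sign changes were seen only for genes that did not pass. These were Rora (0.046 without all marked arrays), Csnk1e (0.00765 with quantile normalization, 0.000223 without the Hox arrays, 0.0496 without the colonocyte arrays and -0.0687 to 0.0362 without single arrays), Fbxl21 (0.0264 with quantile normalization and 9.58e-05 without the squamous arrays), Nampt (0.0489 without the acinar arrays) and Gpcpd1 (-0.00853 without the squamous arrays and -0.0181 to 0.0765 without single arrays). Under the 15 alternatives tried for single genes, Ciart, Dbp, Arntl, Npas2 and E2f2 passed in all but the one that left out all 12 marked arrays.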

Other observations

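Probes that matched no gene of the RefSeq table lay outside all comparisons above. Of 8443 such probes, 163 (1.93%) passed in the same model fitted over the 42787 kept probes, against 1235 (3.60%) of the matched probes.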
